A study of Mus musculus with 2 samples.

Results

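The genes described here encode 7 metabotropic glutamate receptors, taken by symbol from the GENCODE M21 annotation of mm10, out of 21938 protein-coding genes. Group I is represented by Grm5, group II by Grm2 and Grm3, and group III by Grm4, Grm6, Grm7 and Grm8. Open chromatin was mapped by DNase-seq in frontal cortex, a method in which nuclei are cut lightly with DNase I so that densely cut DNA marks open promoters and enhancers. There was 1 group of 2 libraries, both from male B6CASTF1/J mice aged 14 days. B6CASTF1/J is an F1 hybrid of C57BL/6J and the wild-derived CAST/EiJ strain. Each library was labelled as tissue pooled from 3 males, and the libraries had separate tissue sample numbers under 1 donor number, and their differences may include technical ones. No second condition was analysed here, and no test was made. Values are given for each library, and the share over all protein-coding genes serves as the background. Read depth was unknown. A peak height is the authors' value, scaled for each library in a unit that was not stated. A shared region is a place where peaks of both libraries overlapped, and the series held 53623 of them. Footprints are short stretches inside open DNA where cuts are sparse, which a protein sitting on the DNA could leave.

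Metabotropic glutamate receptors are G protein-coupled receptors that bind glutamate in a large extracellular lobe and slow or tune synaptic transmission. Group I receptors couple to Gq and phospholipase C and lie mostly beside postsynaptic densities. Group II and III receptors couple to Gi/o, lower cAMP and restrain transmitter release, mostly from presynaptic terminals. Grm3 is also a glial gene, expressed in astrocytes. Grm6 is known for its role in retinal ON bipolar cells, where it senses photoreceptor glutamate. Cortex is a mixture of neurons, glia and vessels, and in such bulk tissue fewer open cells and less opening per cell cannot be told apart.

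Promoters of 4 of the 7 genes, Grm5, Grm3, Grm7 and Grm8, held a peak in both libraries within 1000 bp of an annotated start site, against 59.7% of all protein-coding genes. A promoter with peaks in both is called open here. Those 4 were the members longer than 200 kb, and 87.8% of all genes of that length had open promoters. Grm2 and Grm6 had no promoter peak in either library, which was true of 36.2% of all genes. Grm4 had one in replicate 2 alone. At least 1 promoter footprint in both libraries was found for the same 4 genes, Grm5, Grm3, Grm7 and Grm8, against 57.2% of all genes. The open promoters of the family were low. Heights at the tallest promoter peak lay between 1.09 and 2.69 in replicate 1 and between 1.04 and 2.24 in replicate 2, below the medians of 3.03 and 2.96 over all genes with open promoters.

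**Figure D1:**
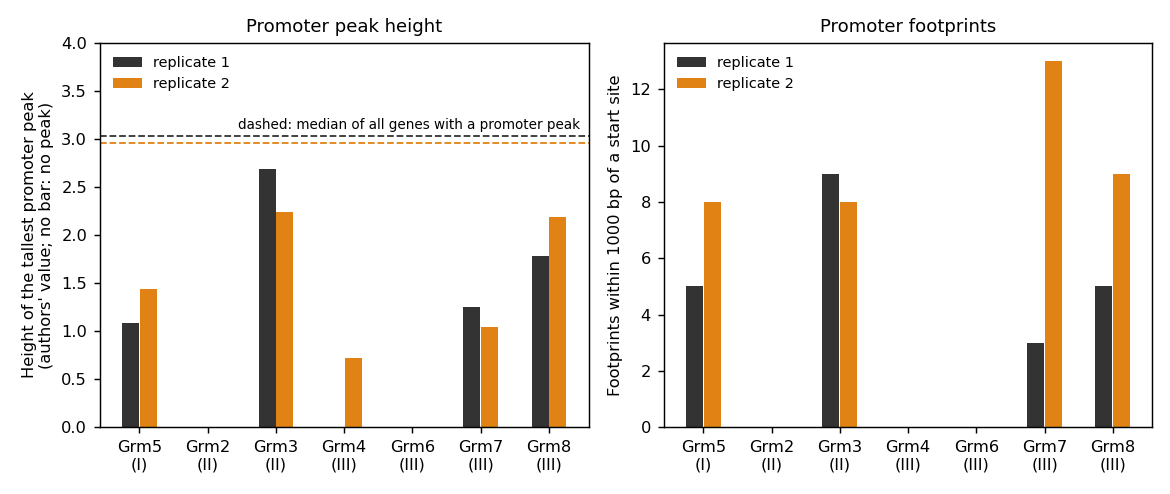
Left, height of the tallest promoter peak of each gene in each library (authors' value), with dashed lines at the medians of 3.03 (replicate 1) and 2.96 (replicate 2) over all genes with open promoters. Right, number of footprints within 1000 bp of a start site; Grm3 had the tallest promoter peak in both libraries, and Grm2 and Grm6 had neither a peak nor a footprint.

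Grm5, the group I receptor that couples to Gq and binds Homer scaffolds, spans 551 kb (chromosome 7, 87584168 to 88134907, plus strand). Its promoter region covered 600 bp over the first start site, from the 5′ UTR and first exons into the first intron. The height there was 1.09 in replicate 1 and 1.44 in replicate 2. These heights ranked at percentiles 16.4 and 26.1 among all promoter heights of their library. The region held 5 footprints in replicate 1 and 8 in replicate 2. A second cluster of start sites (87602441 to 87602544), where 2 coding transcripts begin, had no peak in either library. The nearest peak there was 15435 bp away in replicate 1 and 15073 bp away in replicate 2, so all promoter opening of Grm5 sat at the first cluster.

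Grm5 had 9 shared distal regions, the most of any member. Distal means more than 1000 bp from any start site of a protein-coding gene. The tallest lay 2.28 kb inside the gene, over a non-coding exon and intron 1 (87586301 to 87586600), with heights of 1.86 and 1.33 in replicates 1 and 2. It was taller than the promoter region in replicate 1 and lower than it in replicate 2. The second lay in intron 4 (87925941 to 87926220), 342 kb from the 5′ end, with heights of 1.65 and 1.28. The next by mean rank lay in intron 6 (88027501 to 88027740), with heights of 0.633 and 0.917. The other 6 had heights of 0.490 to 0.943 in replicate 1 and 0.450 to 0.642 in replicate 2, and all of them lay below the distal median of replicate 2. Of these, 1 lay wholly in the last coding part of the gene (88130121 to 88130720), a stretch of 600 bp with 67.5% GC and an observed to expected CpG ratio of 0.748. The GC share of that exon region was the highest of all 27 distal regions of the family. The sequences below show the open parts of Grm5 that the heights single out, without UTR bases, as given by the mm10 assembly; capitals mark bases that lay in footprints of both libraries.
Grm5 promoter region, chr7:87584541-87584720, plus strand: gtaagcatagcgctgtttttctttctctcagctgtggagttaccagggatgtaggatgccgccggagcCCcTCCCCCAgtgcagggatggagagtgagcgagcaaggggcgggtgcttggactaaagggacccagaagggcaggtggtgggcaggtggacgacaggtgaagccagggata
Grm5 distal region, chr7:87586301-87586514, plus strand: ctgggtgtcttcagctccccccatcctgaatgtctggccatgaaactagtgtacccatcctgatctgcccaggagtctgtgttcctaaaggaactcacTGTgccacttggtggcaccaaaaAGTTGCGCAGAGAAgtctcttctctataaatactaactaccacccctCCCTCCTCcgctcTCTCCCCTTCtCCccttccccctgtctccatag
The promoter stretch is the intronic end of the region, with 9 capital bases. The distal stretch has 37, among them a run with the letters GTTGC, at position 123 of the printed strand.

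**Figure D2:**
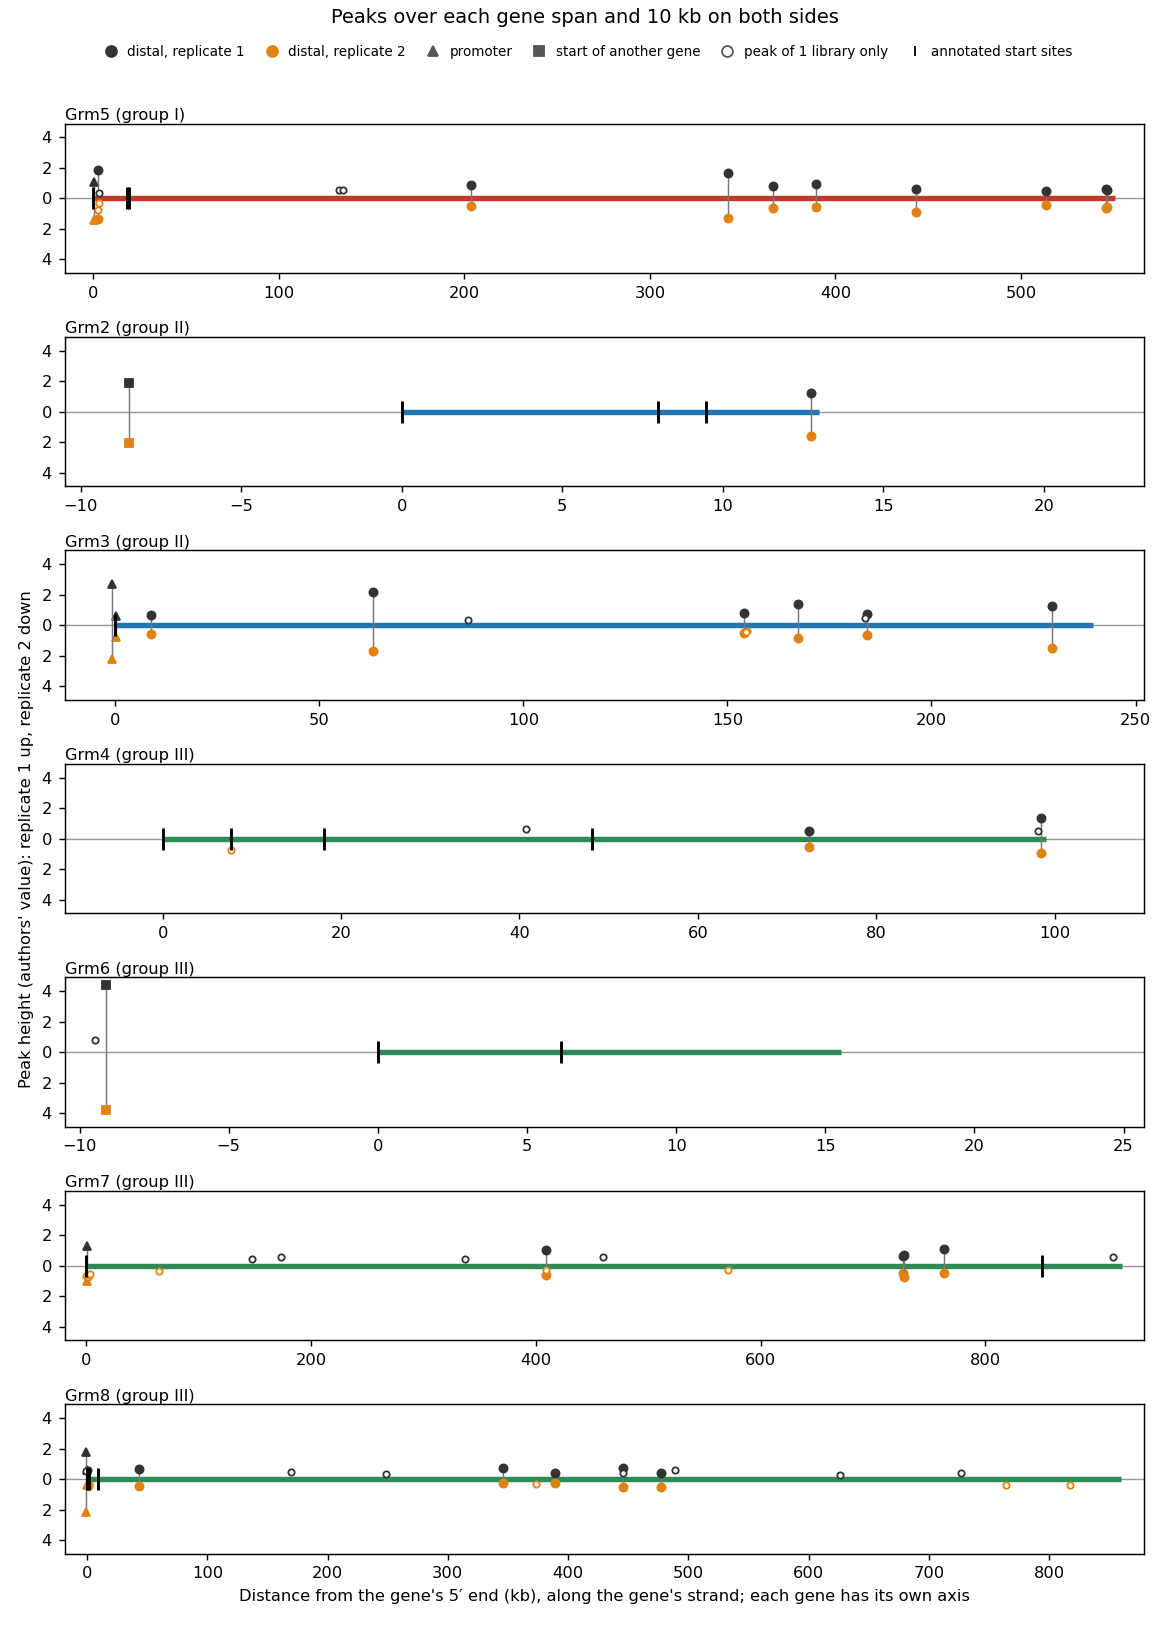
Peaks over each gene and 10 kb on both sides, by distance from the gene's 5′ end in kb, with heights (authors' value) of replicate 1 upward and of replicate 2 downward; filled symbols are shared regions, open symbols peaks of 1 library, and black ticks annotated start sites. The 27 distal regions lie along Grm5 (9), Grm3 (6), Grm8 (5), Grm7 (4), Grm4 (2) and Grm2 (1). The tall symbols upstream of Grm2 lie 504 bp from a start site of Tex264, and those upstream of Grm6 lie over the start of Zfp879.

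Grm3, the group II receptor found on neurons and astrocytes, spans 240 kb (chromosome 5, 9485541 to 9725170, minus strand) and has 1 annotated start site. It had the tallest promoter peak of the family, with heights of 2.69 in replicate 1 and 2.24 in replicate 2, at percentiles 46.6 and 41.4 of all promoter heights. This peak lay upstream of the start site (9725901 to 9726300), with its nearest edge 891 bp away in replicate 1 and 731 bp away in replicate 2. The region over the start site itself (9724461 to 9725660) was 1200 bp wide and low, with heights of 0.573 and 0.759. The smallest false discovery rate in the authors' cut rate track was 3.35e-29 in the upstream region and 0.000315 over the start site in replicate 1. In replicate 2 it was 3.49e-17 upstream and 1.77e-05 over the start site. Both libraries therefore placed the strongest cutting at the upstream region.

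The 6 shared distal regions of Grm3 all lay in introns. The tallest, in intron 1 and 63.1 kb from the 5′ end (9661941 to 9662180), had heights of 2.17 in replicate 1 and 1.71 in replicate 2 and was the tallest distal region of the family by mean height. A region in intron 5 (9495541 to 9495820) had heights of 1.24 and 1.48, and one in intron 3 (9557781 to 9558100) had heights of 1.42 and 0.826. The other 3 lay between 0.657 and 0.788 in replicate 1 and between 0.517 and 0.617 in replicate 2. The sequences of the upstream region and of the intron 1 region are printed because they carry the family's tallest promoter and distal peaks, with capitals as above; the upstream one is limited to the 300 bases with most capitals.
Grm3 promoter region, chr5:9725950-9726249, minus strand: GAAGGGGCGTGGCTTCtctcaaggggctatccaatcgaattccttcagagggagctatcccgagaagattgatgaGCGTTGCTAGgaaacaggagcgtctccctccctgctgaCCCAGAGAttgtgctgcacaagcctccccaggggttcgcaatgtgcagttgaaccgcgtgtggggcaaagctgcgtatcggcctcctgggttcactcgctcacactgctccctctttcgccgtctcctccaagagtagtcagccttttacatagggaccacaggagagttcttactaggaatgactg
Grm3 distal region, chr5:9661941-9662180, minus strand: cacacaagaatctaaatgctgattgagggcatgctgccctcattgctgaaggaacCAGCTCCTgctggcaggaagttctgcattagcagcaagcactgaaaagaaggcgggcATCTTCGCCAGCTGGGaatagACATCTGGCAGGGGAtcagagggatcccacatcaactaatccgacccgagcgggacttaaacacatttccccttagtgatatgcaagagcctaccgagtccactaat
In the upstream region the capitals fall in 3 runs, and 1 of them includes GTTGC at position 78. In the intron region they also fall in 3 runs, and 1 of them includes CATCTG, the reverse complement of the neuronal E-box CAGATG, at position 135.

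Grm2, the other group II receptor and a presynaptic autoreceptor in the forebrain, spans 12.99 kb (chromosome 9, 106643095 to 106656082, minus strand). No peak lay within 1000 bp of any of its start sites, which fall into 3 clusters, and the cut rate track listed 0 bases below 0.05 there in either library. Of all 7933 genes with no promoter peak in either library, 97.0% had no listed base in either. Its 1 shared distal region (106643227 to 106643440) lay over the 3′ UTR, where 2.5% of all shared distal regions lay. The height there was 1.22 in replicate 1 and 1.58 in replicate 2, above the distal median in both. It held 4 footprints in each library, and 38 bases were in footprints of both. The other region near Grm2, with heights of 1.85 and 2.08, lay 504 bp from a start site of Tex264, a neighbouring autophagy receptor gene, and was not counted as distal. The GC share within 1000 bp of the 5′ end of Grm2 was 59.0%, in the ninth decile of all genes, where 81.9% of promoters were open in both libraries. Grm2 was thus among the minority of genes of its GC decile without one.

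Grm7, a low-affinity group III receptor of the presynaptic active zone, is the longest member at 922 kb (chromosome 6, 110645581 to 111567230, plus strand). Its promoter region reached heights of 1.25 in replicate 1 and 1.04 in replicate 2, at percentiles 20.3 and 16.6. With the shorter peak lists this promoter was no longer open in both libraries. The libraries differed in its width. Replicate 1 had 1 promoter peak of 316 bp with 3 footprints, and replicate 2 had 4 peaks, the widest of 1060 bp, with 13 promoter footprints in all. Some of these 4 peaks overlap each other, so they are not 4 separate open stretches. In the cut rate track 364 promoter bases were listed in replicate 1 and 1526 in replicate 2, and all 364 were listed in both. The second cluster of start sites (111495715 to 111495744), where 2 coding transcripts begin, had no peak closer than 62973 bp in replicate 1 and 86635 bp in replicate 2. All 4 shared distal regions were intronic. In intron 2 (111054081 to 111054320) the heights were 1.05 and 0.609, and in intron 8 (111408861 to 111409080) they were 1.06 and 0.459. The remaining pair, both in intron 8, had heights of 0.693 and 0.734 at 111373096 to 111373300 and of 0.645 and 0.484 at 111372000 to 111372161. Only the region at 111373096 was higher in replicate 2.

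Grm8, a group III receptor with high glutamate affinity on presynaptic terminals, spans 860 kb (chromosome 6, 27275119 to 28135178, minus strand). Its tallest promoter region, like that of Grm3, lay upstream of the 5′ end (28135981 to 28136140), 803 bp from the nearest start site. The height in this upstream region was 1.78 in replicate 1 and 2.19 in replicate 2, at percentiles 31.4 and 40.6. That nearest site belongs to 1 transcript, which is not a coding one. At the next cluster (28134385 to 28134545), with 1 coding transcript, the tallest peaks within 1000 bp were 0.621 in replicate 1 and 0.450 in replicate 2. The shared region at the first start site (28134846 to 28135238) was low. Its replicate 2 peak, with a height of 0.392, covered that site, and its replicate 1 peak, with a height of 0.561, ended 118 bp from it. Another cluster of start sites (28133129 to 28133325) had peaks in replicate 2 alone, and the last (28126125 to 28126195) had none within 7102 bp in either library. The 5 distal regions were all intronic and low. Those in intron 6 (27689521 to 27689780), intron 2 (28091921 to 28092180) and intron 3 (27789361 to 27789460) had heights of 0.705, 0.669 and 0.728 in replicate 1. In replicate 2 the same regions had heights of 0.542, 0.484 and 0.284. The other pair, in intron 6, reached at most 0.406 in replicate 1 and 0.5004 in replicate 2. All 5 lay below the distal median in both libraries, and none held a base in footprints of both.

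**Figure D3:**
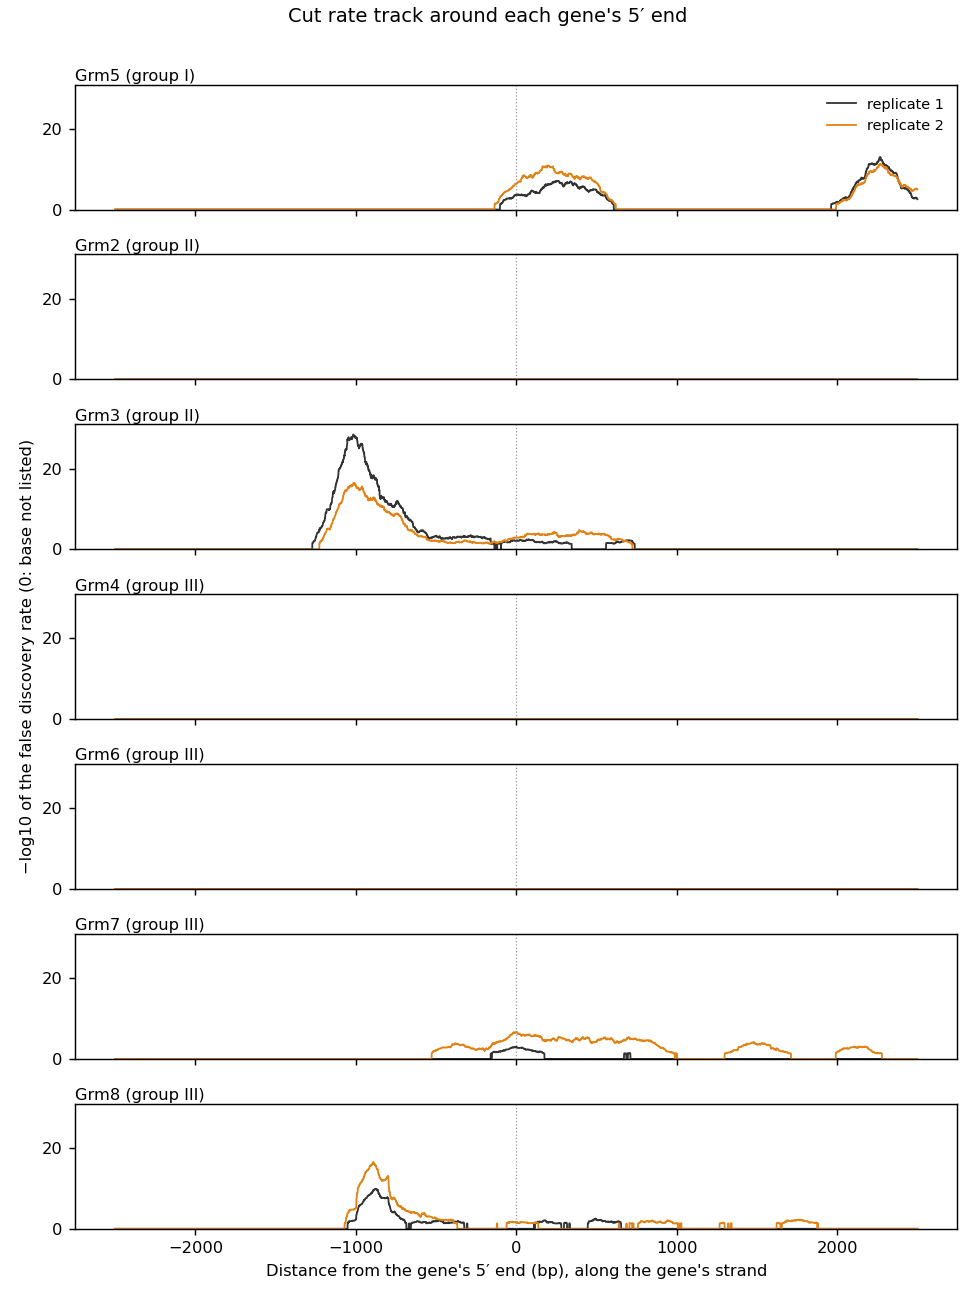
The −log10 of the authors' false discovery rate around each gene's 5′ end, by distance in bp along the gene's strand, for both libraries; bases that the track does not list are drawn at 0. Grm3 and Grm8 each rise highest upstream of the 5′ end in both libraries. Grm5 rises over its 5′ end and, 2.28 kb downstream, at its tallest distal region. The smallest Grm5 values were 7.89e-08 and 1.01e-13 at these places in replicate 1, and 1.14e-11 and 4.69e-12 in replicate 2. Grm7 is wider in replicate 2, and Grm2, Grm4 and Grm6 show no listed base in this window.

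Grm4, the group III receptor best known from cerebellar granule cell terminals, spans 99.02 kb (chromosome 17, 27422387 to 27521403, minus strand) and has 4 clusters of start sites. The only promoter peak was one of 80 bp in replicate 2 (27513739 to 27513818), 13 bp from the second cluster, with a height of 0.726 and no footprint. The smallest false discovery rate there was 0.0165, and replicate 1 listed no base within 1000 bp of any start site of the gene. Its taller shared distal region lay in an intron near the 3′ end of the gene, with 1 base in a coding exon (27422781 to 27423080). The middle of this region lay in no intron of the longest coding transcript. Its height was 1.33 in replicate 1 and 0.934 in replicate 2, above the distal median in both. The other, in intron 4 (27448918 to 27449032), had a height of 0.525 in both. The sequences of the tallest promoter region of group III and the tallest distal region of Grm7, Grm8 and Grm4 by mean rank of both libraries are shown with capitals as above. In replicate 1 alone, the intron 8 region of Grm7 at 111408861 and the intron 3 region of Grm8 were slightly taller than those printed. In replicate 2 alone, the Grm7 region at 111373096 was taller.
Grm8 promoter region, chr6:28135981-28136140, minus strand: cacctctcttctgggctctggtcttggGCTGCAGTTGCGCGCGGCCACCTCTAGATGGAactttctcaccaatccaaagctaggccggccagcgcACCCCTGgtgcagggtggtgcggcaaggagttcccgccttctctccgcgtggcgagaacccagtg
Grm7 distal region, chr6:111054081-111054320, plus strand: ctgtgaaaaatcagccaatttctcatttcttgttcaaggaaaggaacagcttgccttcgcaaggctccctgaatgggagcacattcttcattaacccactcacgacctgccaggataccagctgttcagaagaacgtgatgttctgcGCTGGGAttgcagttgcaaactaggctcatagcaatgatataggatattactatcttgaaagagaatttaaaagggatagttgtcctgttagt
Grm8 distal region, chr6:27689521-27689780, minus strand: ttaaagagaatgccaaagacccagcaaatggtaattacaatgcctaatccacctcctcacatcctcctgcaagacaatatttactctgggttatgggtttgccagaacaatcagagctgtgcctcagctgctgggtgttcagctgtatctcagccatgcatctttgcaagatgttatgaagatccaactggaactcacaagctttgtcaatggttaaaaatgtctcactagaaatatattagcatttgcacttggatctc
Grm4 distal region, chr17:27422781-27423080, minus strand: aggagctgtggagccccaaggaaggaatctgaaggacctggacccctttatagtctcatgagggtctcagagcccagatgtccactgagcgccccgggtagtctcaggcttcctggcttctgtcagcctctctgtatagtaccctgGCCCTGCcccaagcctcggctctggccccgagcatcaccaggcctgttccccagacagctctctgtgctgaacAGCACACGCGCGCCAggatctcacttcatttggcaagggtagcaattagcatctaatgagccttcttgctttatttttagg
In the Grm8 promoter region 39 bases are capitals, in 2 runs, and the longer one includes GTTGC at position 34. The Grm7 distal region has 7 capital bases, the Grm4 one 22, and the Grm8 distal region none, although replicate 1 had footprints over 30 of its bases and replicate 2 over 9.

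Grm6, the receptor of retinal ON bipolar cells, spans 15.5 kb (chromosome 11, 50850685 to 50866208, plus strand) and held no peak of either library in its span. It was the only member with no shared distal region. At least 1 such region was found for 6 of the 7 members, against 46% of all genes, and for 4 of the 4 members longer than 200 kb, against 94.3% of all genes of that length. The nearest peak to a start site of Grm6, with heights of 4.42 in replicate 1 and 3.81 in replicate 2, lay 9005 bp away over the start of the zinc finger gene Zfp879. The cut rate track listed 0 bases within 1000 bp of its start sites in either library. The GC share around its 5′ end was 58.3%, in the ninth decile.

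Between the groups, distal opening was densest in group II and sparsest in group III. Group II had 0.239 shared distal regions per 10 kb (7 regions in 293 kb), group I had 0.158 (9 in 571 kb) and group III had 0.0557 (11 in 1976 kb). Within group III the density ran from 0 at Grm6 through 0.0425 at Grm7 and 0.0568 at Grm8 to 0.168 at Grm4, which was above Grm5, so the groups overlapped. In group II, Grm2 had 0.303 from 1 region and Grm3 had 0.231. Gene length also moved with these values. Among the 998 genes longer than 200 kb the median density was 0.131, and there Grm7 lay at percentile 17.6, Grm8 at 22.6, Grm5 at 59.0 and Grm3 at 78.0. All genes with spans of 562 to 1000 kb had a mean density of 0.120, and Grm7 and Grm8, both in that range, lay below it. The order of the groups was the same in each library on its own. Replicate 1 alone gave 0.308, 0.210 and 0.121 regions per 10 kb for groups II, I and III, and replicate 2 alone gave 0.308, 0.193 and 0.101.

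**Figure D4:**
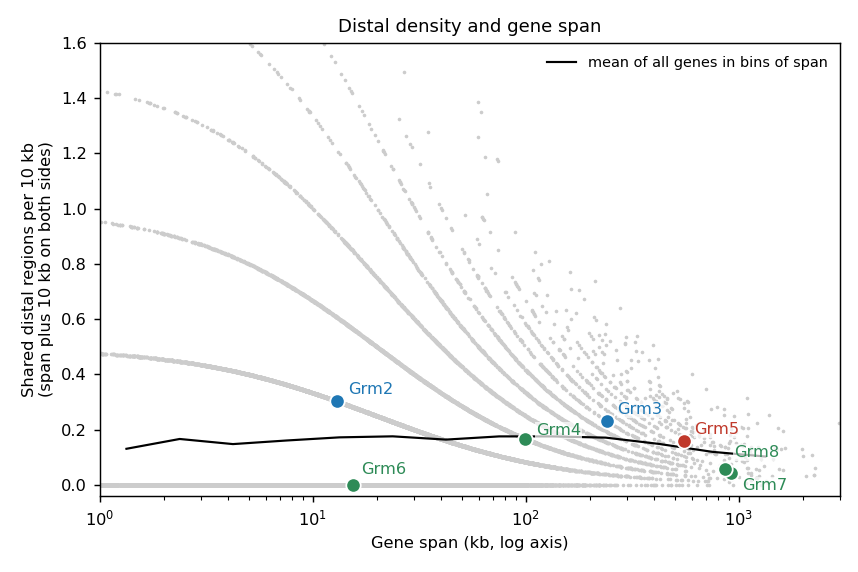
Shared distal regions per 10 kb (gene span plus 10 kb on both sides) by gene span in kb on a log axis, for all 21938 protein-coding genes (grey; the curves are genes with the same whole number of regions, and points above 1.6 are not drawn) and the 7 receptor genes in colour by group. The black line is the mean in bins of span; Grm3, Grm2 and Grm5 lie above it and Grm7, Grm8, Grm6 and, by little, Grm4 below.

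Heights of the distal regions followed the same order. Their median was 1.22 in replicate 1 and 0.826 in replicate 2 for group II, 0.788 and 0.634 for group I, and 0.693 and 0.5004 for group III. Over all 27 it was 0.728 in replicate 1 and 0.592 in replicate 2, against 0.920 and 0.851 for all 34563 shared distal regions. Both libraries put 16 of the 27 below their distal median and 6 above it, and those 6 were 2 regions each of Grm5 and Grm3 and 1 each of Grm2 and Grm4. The shares of all 34563 regions below both medians and above both are not given here, so these counts are descriptions only. Replicate 1 was the higher library at 19 of the 27, replicate 2 at 7, and 1 region of Grm4 was equal within 0.0119, the larger of the smallest height steps of the libraries. The log2 ratio of replicate 2 over replicate 1 had a median of −0.36 at these 27 regions and −0.10 over all distal regions. By their middle base, 25 of the 27 lay in introns. The regions were taken from gene spans plus 10 kb, so this count follows in part from that choice. The same share over all shared distal regions is not given here.

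**Figure D5:**
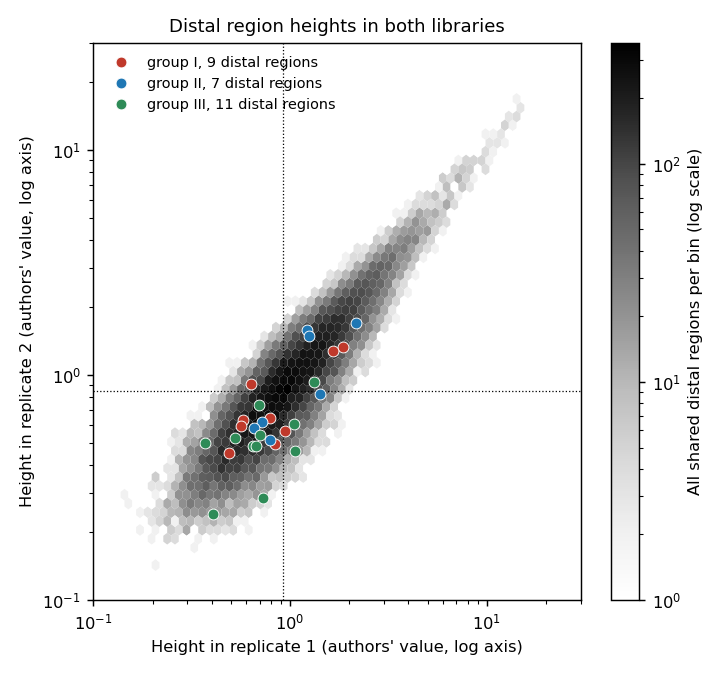
Heights (authors' value, log axes) of distal regions in replicate 1 and replicate 2, with the 27 regions of the receptor genes in colour over the density of all 34563 shared distal regions in grey. Dotted lines mark the distal medians of 0.920 (replicate 1) and 0.851 (replicate 2); 16 coloured points lie below both lines and 6 above both.

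Footprints over the 7 genes numbered 86 in replicate 1 and 118 in replicate 2. Of the 86, 38 overlapped one of the other library, or 44.2% (95% Wilson interval 34.2% to 54.7%), against 54.8% of all footprints of replicate 1. Of the 118, 39 did, or 33.1% (25.2% to 42.0%), against 41.3% of all footprints of replicate 2. These intervals cover counting error only, and footprints in 1 peak are not independent. By group, the share was 54.8% in replicate 1 and 56.7% in replicate 2 for group II, 50% and 37.5% for Grm5, and 30.3% and 17.9% for group III. The low share of group III came from Grm8, with 2 of 14 footprints shared in each library, and Grm7, with 4 of 13 in replicate 1 and 4 of 32 in replicate 2. Its shorter members differed from them. Grm6 had 66.7% shared in both libraries, 2 of 3 each, all from the stretch near the start of Zfp879, and Grm4 had 2 of 3 in replicate 1 and 2 of 7 in replicate 2. Open DNA of the 7 genes held 7.10 footprints per kb of peak in replicate 1 and 8.77 in replicate 2, against 9.45 and 10.9 over all peaks. Some base in footprints of both libraries was present in 14 of the 27 distal regions (51.9%), against 57.5% of all shared distal regions.

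Short motifs were searched on both strands in the 200 bp around the middle of each shared region, as letters alone. Where a region was narrower than 200 bp, the window ran past its ends, so a match counted for it can lie beside it. The neuronal E-box CAGATG, bound by factors such as Neurod2, occurred in 9 of the 27 distal regions (33.3%), against 24.6% of all shared distal regions. TTGGC, which is part of the NFI motif, occurred in 12 (44.4%), against 44.9%. The AP-1 motif TGANTCA, bound by Fos and Jun, occurred in none, against 10.7%. At the 6 promoter regions of the 4 open genes the GC box GGGCGG occurred in none of these middle windows, against 49.6% of all shared regions within 1000 bp of a start site. Outside its middle window, the printed Grm5 promoter stretch holds GGGCGG at position 107. Inside footprints of both libraries, searched over whole regions, GTTGC, which is part of the RFX motif, was found in 2 of the 6 promoter regions (Grm3 and Grm8) and 1 of the 27 distal ones (Grm5), against 5.86% and 3.89% of all such regions. The same search found CAGATG in 2 distal regions (7.41%), in Grm5 and in Grm3, against 3.56%. With so few regions these shares are descriptions. Median GC in the middle 200 bp was 48.5% for the 27 distal regions, against 51.5% for all. In group II it was 52.5%, in group I 48%, and in group III 48.5%.

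Genes of proteins that these receptors act through were counted the same way, beside the shares of 59.7% of all genes with open promoters and 36.2% with a promoter peak in neither library. Of 14 genes of the group I partners and the Gq cascade, 13 were open at the promoter in both libraries. The tallest was at Gna11, which encodes a Gq-type alpha subunit, with heights of 11.9 in replicate 1 and 11.9 in replicate 2. Homer2, a scaffold that ties group I receptors to internal calcium stores, had none in either library. All 12 genes of the Gi/o cascade had one, with Gnb2, a G protein beta subunit, tallest at 7.36 and 6.76 and the adenylyl cyclase Adcy1 lowest by mean rank at 0.824 and 0.726. In replicate 1 the related cyclase Adcy8 was lower still, at 0.681. All 4 partners of group III receptors had one, with Pick1, a PDZ protein that binds Grm7, tallest at 9.34 and 8.37 and the scaffold Grip1 lowest at 0.549 and 0.776. Of 6 genes of the retinal ON bipolar cascade, in which Grm6 acts, 1 had one, the regulator of G protein signalling Rgs11, with 1.35 and 1.56. Nyx and Trpm1, the matrix protein and the cation channel of that cascade, had none in either library. Marker genes of the cell types a cortex sample could hold were counted too. With so few genes in each list, the counts are read beside the 59.7% over all genes, and several lie near it. Promoters were open in both libraries for 4 of 5 excitatory neuron, 3 of 3 inhibitory neuron, 2 of 5 astrocyte, 2 of 3 oligodendrocyte precursor, 1 of 4 microglial and 1 of 3 endothelial markers. They were open for 0 of 4 oligodendrocyte, 0 of 5 retinal and 2 of 4 cerebellar granule cell markers. Which cells opened each receptor gene was not tested.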

How the data were processed

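DNase-seq peaks, footprints and cut rates of 2 frontal cortex libraries were analysed, and the members, lists, motifs and sequences shown were chosen with earlier results of these data known. Per the file headers and names, the deposited coordinates are mm10, called per library and not pooled. The aligner and the callers are not given in the sources used here. Peak height, as the authors deposited it, is a signal value on a scale set per library, with smallest steps of 0.0119 in replicate 1 and 0.0083 in replicate 2. The authors' deposited track of cut rates holds false discovery rates (q-values, or p-value units) for bases below 0.05. Their deposited footprints carry the constant 0.01 in that column. Of 2 deposited peak lists per library the longer was used. Reads of an F1 hybrid may map less well to the reference of 1 parent strain, which was not tested.

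Peaks that overlapped by at least 1 bp, also within a library, were joined, and each shared region took the tallest height per library. A promoter window reached 1000 bp to either side of each annotated start site. Promoter percentiles rank a gene's tallest promoter peak among those of all genes with one in that library. Start sites at most 500 bp apart formed a cluster. Distal regions and footprints were taken over the gene span plus 10 kb on both sides, and intron numbers follow the longest coding transcript. Sequence came from the RefSeq GRCm38.p6 assembly, whose chromosomes hold all peak coordinates. Named were all members, the promoter regions and up to 3 tallest distal regions of each, and per pathway list the tallest, the lowest and up to 2 genes without a promoter peak, except 1 gene that is not reported here. Joining was tested on simulated data. Python 3.11.15 with numpy 2.4.6, pandas 2.3.3, pysam 0.24.0 and matplotlib 3.10.9 was used.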

Additional observations from a re-analysis of the deposited data

How the results depend on the processing

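The count of members open at the promoter in both libraries was 4 and stayed between 3 and 5 under the 7 alternatives. It was 3 with the shorter peak lists, where Grm7 lost its call, and 4 to 5 in single libraries, where replicate 2 added Grm4. Distal densities depended on the peak list, while the order of groups II, I and III held under all 8 alternatives. With the shorter lists the densities per 10 kb were 0.103, 0.0526 and 0.0202 for groups II, I and III. With peaks above the library's median height only, they were 0.137, 0.0350 and 0.00506, and Grm7 and Grm8 then had 0 distal regions. Flanks of 50 kb gave 0.243, 0.138 and 0.0740, and no flanks gave 0.277 for group II. Single libraries gave 0.308 in both for group II, 0.193 to 0.210 for group I and 0.101 to 0.121 for group III, because a region then needs 1 library. Requiring overlap of at least 50% of the shorter footprint, footprints inside peaks, or no flanks left the shared footprint share between 41.2% and 46.2% in replicate 1 and between 28.6% and 34.2% in replicate 2. Leaving out a library gives no such share. No paired analysis was possible because there was 1 group and no test. These 2 libraries of unknown depth limit every value to the gap between them, and a gene without a peak was not detectably open at this depth.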

Other observations

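Peaks of 1 library alone made up 21 of the 58 peaks of replicate 1 over the 7 genes and 18 of the 57 of replicate 2. The share of peaks in shared regions was therefore 63.8% in replicate 1 and 68.4% in replicate 2, against 73.4% and 72.0% over all peaks. They were low, with heights of at most 0.776 in replicate 1 and 0.742 in replicate 2. Grm8 had 8 in replicate 1 and 6 in replicate 2, and Grm7 had 5 and 7, while Grm2 had none. At Grm7, 4 of the 7 in replicate 2 lay within 3559 bp of the first start site, where replicate 1 had only its 1 promoter peak. None of the 39 overlapped a footprint of the other library. By definition that library had no peak there, and most footprints lay in peaks (90.1% of all in replicate 1 and 87.4% in replicate 2). The count therefore follows largely from how these peaks were chosen.

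Of the distal regions, 1 in intron 4 of Grm5 (chromosome 7, 87950321 to 87950507) was mostly repeat sequence, with 69.0% of its bases masked in the assembly. Over all shared distal regions 1.61% were mostly repeat in their middle 200 bp. The 9 letters TTCAGCACC are the left part of the REST motif. They occurred in the middle 200 bp window of the intron 3 region of Grm8 (chromosome 6, 27789361 to 27789460). The same windows held them for 0.318% of all shared distal regions. That Grm8 region is 100 bp wide, so its window ran past its ends. Whether the match lay inside the region was not tested. The search inside footprints of both libraries found these letters in none of the 27 distal regions. The 8 letters ATGCAAAT, the POU octamer, occurred in footprints of both libraries in the region of Grm5 that runs from intron 9 into the last coding exon (88129601 to 88130040), against 0.0839% of all shared distal regions.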
